A study of Mus musculus with 18 samples.

Results

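The effect of an ataxin-1 transgene on cerebellar RNA was measured at postnatal week 28, the oldest of the 3 ages of the series. Members were taken by label: 3 libraries of ATXN1[30Q]D776/Cck-/- mice and 3 libraries of Cck-/- mice, 6 of the 18 libraries in all. ATXN1[30Q]D776/Cck-/- mice carry an ATXN1 transgene, whose label gives a glutamine tract (30Q) and an aspartate (D776), and are labelled Cck-/- as well; Cck encodes the neuropeptide cholecystokinin. Cck-/- mice share that label and carry no transgene by their labels. All mice were of strain FVB, and no library labelled as having intact Cck is part of the comparison. Cck transcripts were detected in the libraries, and what the Cck allele still produces cannot be settled from gene-level values. The remaining 12 libraries, 3 of each genotype at week 5 and at week 12, entered the fit and are used for side-by-side values. Libraries with the transgene are called transgenic below, and values in a group are given in the order of replicates 1, 2 and 3.

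Ataxin-1 is a nuclear protein that binds the transcriptional repressor Capicua, and its glutamine expansion causes spinocerebellar ataxia type 1. The label of the transgene used here does not call its glutamine tract expanded. Purkinje cells are the sole output neurons of the cerebellar cortex. They receive excitation from granule neurons and climbing fibres, and their metabotropic glutamate receptor mGluR1 acts through a G protein, phospholipase C and the inositol trisphosphate receptor to release stored calcium. Their cell bodies are wrapped by Bergmann glia, the radial astrocytes of the cerebellum. In the published ATXN1 transgenic mouse lines, regulatory sequence of Pcp2 directs the transgene to Purkinje cells. The labels used here do not name the promoter, and reads of the transgene itself were not analysed.

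Values are FPKM, fragment counts scaled to transcript length and library size, as the authors deposited them. They summed to between 389248 and 441509 in the 6 libraries, where 12974 to 13323 genes reached an FPKM of 1. Read depth is unknown. Separate animals are not stated for the 3 libraries per group, so p-values measure the spread between libraries, which may be technical. The tissue label matched its markers: the granule neuron gene Gabra6 lay between 250 and 362 FPKM in the 6 libraries. Transgenic replicate 3 stood apart in choroid plexus genes, with a mean log2(FPKM + 1) of 1.42, against 3.69 and 3.32 in the other transgenic libraries and 3.37, 3.25 and 4.09 in the Cck-/- libraries. Cck-/- replicate 1 stood apart in blood and meninges genes, at 5.92 and 4.16, where the other Cck-/- libraries had 4.23 and 3.02 for blood and 3.12 and 3.33 for meninges. Replicate 1 of each genotype held Y-linked transcripts, so that the sexes were balanced between the genotypes in these 6 libraries. Cck was detected in all 6 libraries despite its label, at 8.35, 6.34 and 4.85 FPKM in transgenic and 7.34, 3.85 and 3.71 FPKM in Cck-/- libraries (log2 fold change 0.36, SE 0.23, adjusted p = 0.353; limma). Mouse Atxn1 had 5.50, 6.42 and 5.96 FPKM in transgenic and 4.05, 6.26 and 6.92 FPKM in Cck-/- libraries (log2 fold change 0.07, SE 0.15, adjusted p = 0.809; limma).

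Of 13487 genes tested, 10.7% were called at an adjusted p under 0.05 (limma). They were 612 higher (4.54%) and 827 lower (6.13%) genes, with a median log2 fold change of 0.34 among the higher and -0.37 among the lower, against 0.0046 over all genes tested. The steep changes were mostly decreases: 69 of the lower and 16 of the higher genes moved by more than 1 on the log2 scale. In 794 of the lower and 583 of the higher genes the 2 genotypes did not overlap, a separation that 12.9% of all genes tested showed downward and 13.2% upward. The number called depended on single libraries. It was 721 without transgenic replicate 1, 618 without transgenic replicate 2, 752 without Cck-/- replicate 2 and 959 without Cck-/- replicate 3, and 394 lower and 157 higher genes were called in all 6 fits that left out 1 week 28 library. A fit on the 6 week 28 libraries alone called 337 genes, 253 of them lower.

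**Figure D1:**
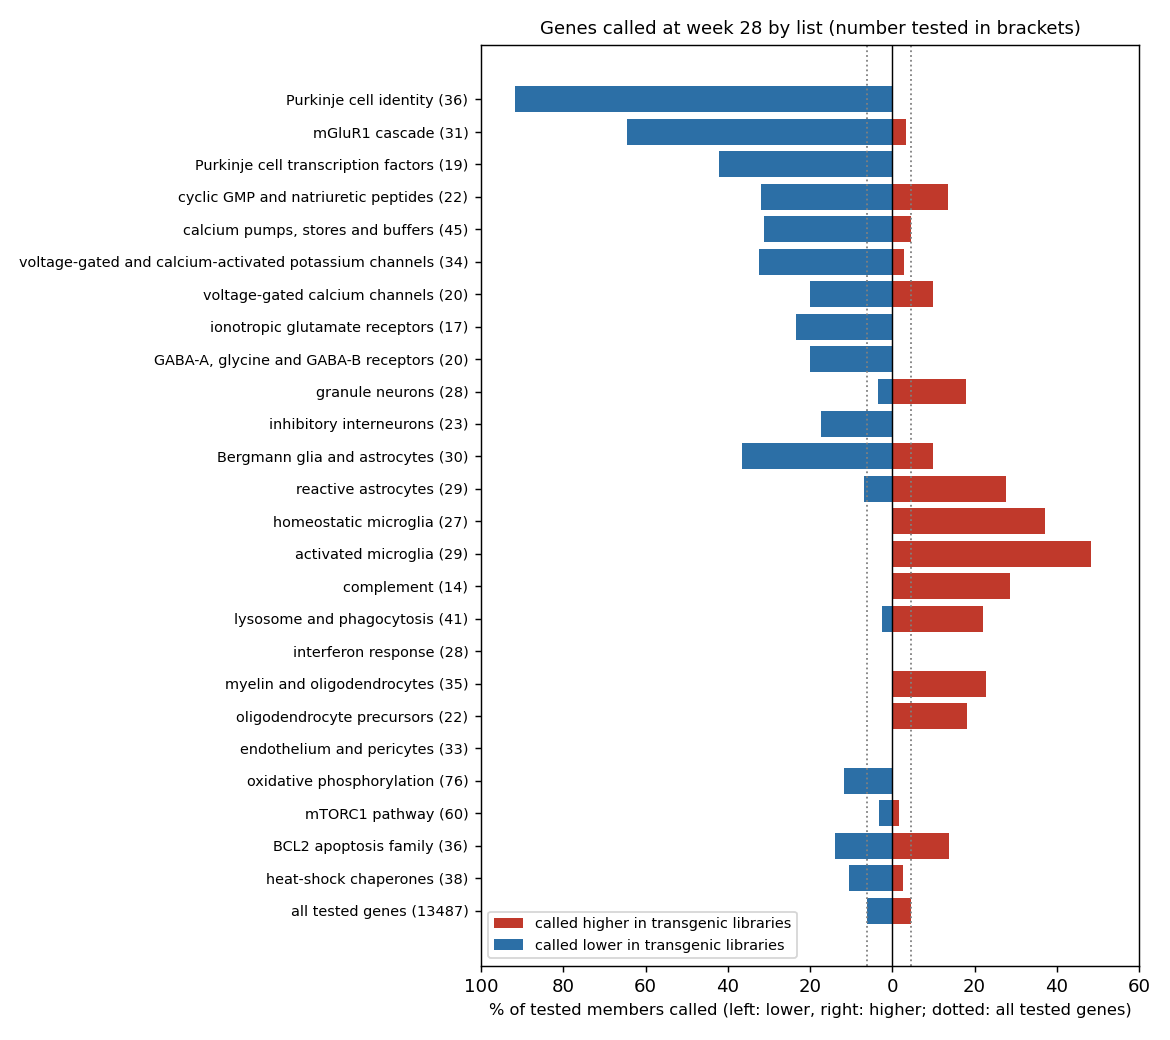
Share of the tested members of each gene list called at week 28 by limma, lower in transgenic libraries to the left and higher to the right, in percent, with the number of tested members in brackets. The dotted lines mark the shares over all tested genes (6.13% lower and 4.54% higher): Purkinje cell and mGluR1 lists extend left, and microglia, complement and reactive astrocyte lists extend right.

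The transcripts that mark Purkinje cells were lower almost throughout the list. Of 36 Purkinje cell identity genes tested, 33 fell and 0 rose, with a median log2 fold change of -1.27, against 6.13% lower among all genes tested. Leaving out any 1 week 28 library left between 29 and 34 of them called lower. Car8, a protein that binds the inositol trisphosphate receptor, had 87.8, 70.1 and 133 FPKM in transgenic libraries, against 383, 363 and 375 FPKM in Cck-/- libraries (log2 fold change -1.99, SE 0.18, adjusted p = 1.20e-05; limma). Calb1, the calcium buffer calbindin, had 131, 104 and 205 FPKM in transgenic libraries, against 375, 366 and 381 FPKM in Cck-/- libraries (-1.40, SE 0.16, adjusted p = 5.49e-05; limma). Every transgenic library lay below every Cck-/- library for both genes, and the Cck-/- libraries lay close together. Pcp2, a Purkinje cell regulator of G protein signalling on chromosome 8 (3621551 to 3625545, mm10), had 293, 232 and 490 FPKM in transgenic libraries, against 714, 753 and 686 FPKM in Cck-/- libraries (-1.15, SE 0.18, adjusted p = 0.000769; limma). Pcp4, a calmodulin-binding protein, changed by -0.79 (SE 0.15, adjusted p = 0.00274; limma). For Car8, Calb1 and Pcp2 transgenic replicate 3 came nearest to the Cck-/- libraries without reaching them.

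Other members of the list fell by similar amounts. They include Doc2b, a calcium sensor of vesicle release (-1.72), Icmt, which methylates prenylated proteins (-1.68), Gng13, a G protein gamma subunit (-1.67), Strip2, a part of the STRIPAK phosphatase complex (-1.66) and Arhgef33, a guanine nucleotide exchange factor (-1.54). Pvalb, the calcium buffer parvalbumin, which molecular layer interneurons also express, had 555, 476 and 887 FPKM in transgenic libraries, against 938, 954 and 852 FPKM in Cck-/- libraries (-0.57, adjusted p = 0.0425; limma). Its groups overlapped, and it was not called in 5 of the 6 fits without a library (adjusted p = 0.217 without transgenic replicate 2; limma). The 3 members that were not called were Sphkap, an anchoring protein of kinase A (0.08), the integrin gene Itgb8 (0.03) and the calcium release channel gene Ryr1 (-0.32, adjusted p = 0.220; limma). Sphkap stood at 88.6, 103 and 112 FPKM in transgenic and 74.5, 104 and 111 FPKM in Cck-/- libraries, so the genotypes overlapped. In bulk tissue, fewer cells of a type and less RNA per cell cannot be told apart.

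**Figure D2:**
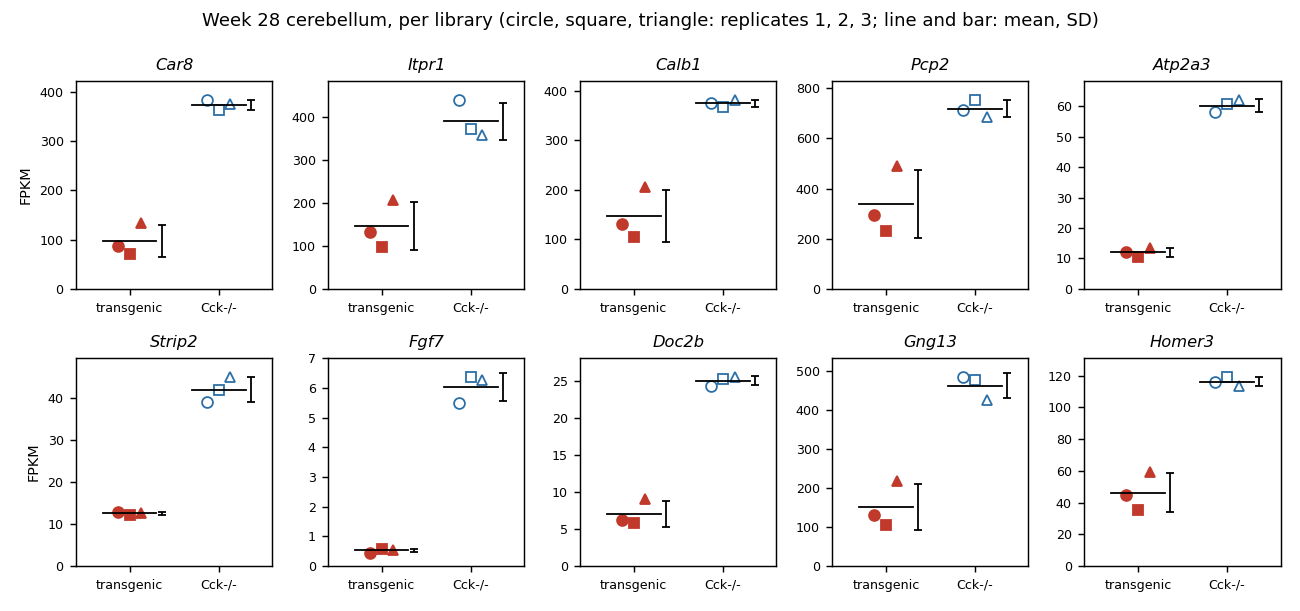
FPKM of 10 genes in each week 28 library, transgenic on the left and Cck-/- on the right of each panel, with the mean as a line and the SD as a bar (n = 3 each). For Calb1, Itpr1 and Pcp2 the triangle of transgenic replicate 3 lies above the other transgenic libraries, while for Strip2 and Fgf7 the 3 transgenic libraries nearly coincide.

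The transgenic libraries differed among themselves in a repeated order. Among the 33 Purkinje cell identity genes that fell, replicate 2 was the lowest transgenic library in 30 and replicate 3 the highest in 31. Over the 36 tested members the median difference from the Cck-/- mean was -1.29 in replicate 1, -1.63 in replicate 2 and -0.88 in replicate 3 on the log2(FPKM + 1) scale, while the Cck-/- libraries stayed within 0.0068, -0.0023 and -0.0077. Not every decrease followed that order. Strip2 had 12.9, 12.1 and 12.5 FPKM in transgenic libraries, against 39.0, 41.7 and 44.9 FPKM in Cck-/- libraries, a highest-to-lowest ratio of 1.06 among transgenic libraries. That ratio was 1.96 for Calb1, 2.12 for Itpr1 and 2.42 for Arhgef33. Fgf7, a fibroblast growth factor on chromosome 2, had 0.446, 0.564 and 0.543 FPKM in transgenic libraries, against 5.49, 6.37 and 6.25 FPKM in Cck-/- libraries (log2 fold change -2.21, SE 0.21, adjusted p = 1.35e-05; limma). Opn3, an opsin, had 1.72, 1.71 and 1.49 FPKM in transgenic libraries, against 6.69, 7.19 and 7.28 FPKM in Cck-/- libraries (-1.61, SE 0.15, adjusted p = 1.39e-05; limma). For Fgf7 and Opn3 replicate 3 was not the highest transgenic library. Over all genes called lower, replicate 3 was the highest transgenic library in 657 of 827 and replicate 2 the lowest in 543. The level of choroid plexus genes was also lowest in replicate 3, and its part in this order was not tested. With that level as a covariate, 33 Purkinje cell identity genes were again called lower. That fit concerns the genotypes and not the order of the transgenic libraries.

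**Figure D3:**
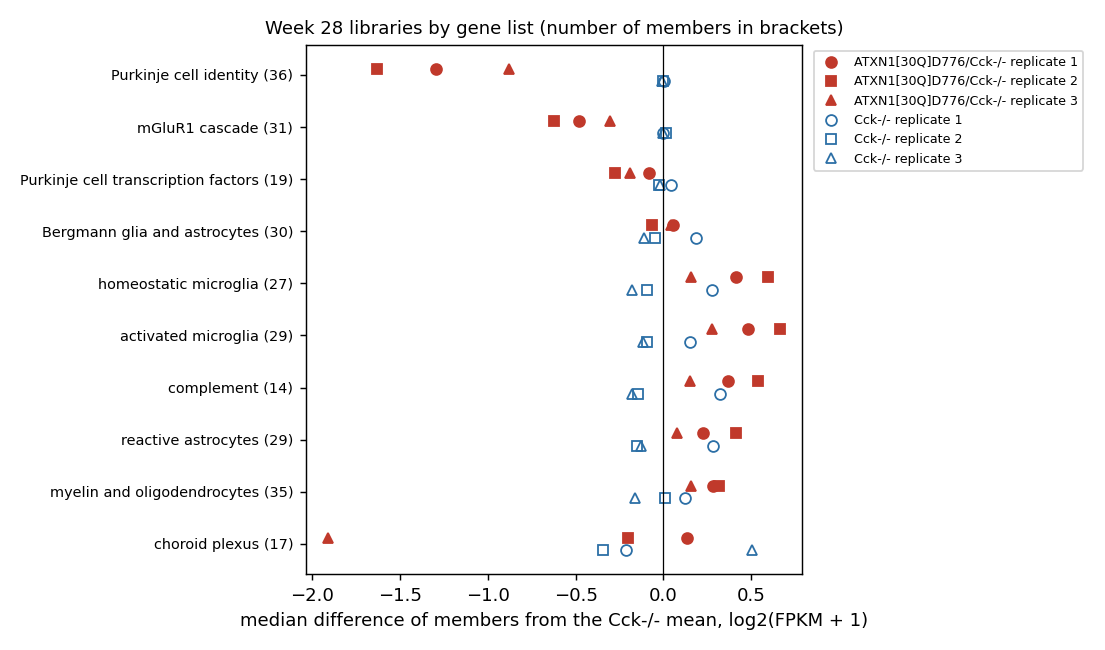
Median difference of the members of 10 gene lists from the Cck-/- mean, on the log2(FPKM + 1) scale, for each transgenic library (filled, upper row of each list) and each Cck-/- library (open, lower row). Transgenic replicates 2, 1 and 3 lie at -1.63, -1.29 and -0.88 for Purkinje cell identity, and replicate 3 lies farthest left for choroid plexus at -1.91.

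Among the 20 largest decreases whose groups did not overlap, 2 were predicted or clone-named genes and all 20 were called in each fit without a library. Beside Purkinje cell identity genes they held Atp2a3, Fgf7, Opn3, Garnl3, a GTPase-activating protein (-1.90), Slc5a1, a sodium-glucose transporter (-1.60), Nek2, a mitotic kinase (-1.76), Cep72, a centrosomal protein (-1.51), and Fam117a (-1.51). For Garnl3 the 3 transgenic libraries had 12.8, 14.9 and 15.4 FPKM, against 48.9, 59.3 and 60.9 FPKM in the Cck-/- libraries.

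Promoter sequence from RefSeq (GRCm38, 250 bases before to 50 after the start) was searched in 6 genes that differed strongly and is shown for 5 of them, because binding motifs of RORA, a Purkinje cell receptor whose gene fell here, and of Capicua were searched there. Capitals mark AGGTCA, the core that ROR receptors bind, or TGAATGAA, a Capicua site, on either strand. Pcp2 has 4 windows, of which the first listed is given (chr8:3625498-3625797, minus strand). The other windows are Homer3 (chr8:70282749-70283048, plus strand), Fgf7 (chr2:126034408-126034707, plus strand), Mslnl (chr17:25735790-25736089, plus strand) and Hrk (chr5:118169514-118169813, plus strand).
Pcp2: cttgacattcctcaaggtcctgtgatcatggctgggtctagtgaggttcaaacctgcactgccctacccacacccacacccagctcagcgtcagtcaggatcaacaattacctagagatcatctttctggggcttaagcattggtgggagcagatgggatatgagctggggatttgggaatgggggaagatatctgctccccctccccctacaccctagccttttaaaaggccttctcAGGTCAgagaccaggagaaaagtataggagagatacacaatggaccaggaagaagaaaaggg
Homer3: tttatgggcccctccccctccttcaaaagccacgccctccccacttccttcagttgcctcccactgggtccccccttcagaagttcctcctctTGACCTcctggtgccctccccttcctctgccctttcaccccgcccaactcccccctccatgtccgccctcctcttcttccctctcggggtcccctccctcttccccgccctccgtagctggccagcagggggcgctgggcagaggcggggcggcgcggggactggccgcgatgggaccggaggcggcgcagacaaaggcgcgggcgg
Fgf7: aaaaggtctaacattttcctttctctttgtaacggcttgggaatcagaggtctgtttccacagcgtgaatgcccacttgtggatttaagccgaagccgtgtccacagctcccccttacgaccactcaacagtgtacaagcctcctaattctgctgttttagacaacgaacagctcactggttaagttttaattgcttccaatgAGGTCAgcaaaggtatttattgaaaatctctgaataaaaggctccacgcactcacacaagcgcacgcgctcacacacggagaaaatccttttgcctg
Mslnl: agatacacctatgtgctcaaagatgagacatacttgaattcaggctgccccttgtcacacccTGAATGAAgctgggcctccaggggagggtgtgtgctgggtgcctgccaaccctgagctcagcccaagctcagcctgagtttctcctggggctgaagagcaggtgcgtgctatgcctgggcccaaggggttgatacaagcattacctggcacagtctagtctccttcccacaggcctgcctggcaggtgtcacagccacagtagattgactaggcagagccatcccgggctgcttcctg
Hrk: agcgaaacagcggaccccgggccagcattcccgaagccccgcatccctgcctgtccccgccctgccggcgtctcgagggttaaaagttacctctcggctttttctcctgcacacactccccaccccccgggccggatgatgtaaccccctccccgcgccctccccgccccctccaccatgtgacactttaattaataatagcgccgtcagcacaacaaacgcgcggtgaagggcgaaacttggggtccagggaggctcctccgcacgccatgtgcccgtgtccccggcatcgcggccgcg

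The AGGTCA core begins 12 bases before the start in Pcp2 (-12) and at -47 in Fgf7, and its reverse complement begins at -157 in Homer3. The TGAATGAA site begins at -188 in Mslnl, and the Hrk window and the Nppb window, which is not printed, hold none of the 4 motifs searched. Windows were given for 10117 of the genes tested. AGGTCA was held by 13.2% of 817 windows of genes called lower, 11.5% of 602 windows of genes called higher and 12.2% of all 13056 windows. In the same order of gene sets (lower, higher, all), TGAATGAA was held by 0.612% and 0.664%, against 0.789% of windows, and TGAATGGA, another Capicua site, by 0.857% and 0.831%, against 0.705%. TGACGTCA, the cyclic AMP response element, was held by 3.55% and 2.82%, against 2.95%. Letters found in a window are a description and not binding sites.

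Most tested genes of the mGluR1 cascade fell. Of 31 tested, 20 fell and 1 rose, against 6.13% lower and 4.54% higher over all genes tested. The median log2 fold change of the list was -0.45. Plcb4 and Plcb3, the phospholipases below the receptor, fell by 0.30 and 0.37 on the log2 scale. Itpr1, the calcium channel that inositol trisphosphate opens, had 133, 97.7 and 207 FPKM in transgenic libraries, against 441, 372 and 359 FPKM in Cck-/- libraries (-1.48, SE 0.19, adjusted p = 0.000120; limma). Homer3, which links the receptor to that channel, had 44.4, 35.2 and 59.2 FPKM in transgenic libraries, against 116, 119 and 113 FPKM in Cck-/- libraries (-1.34, SE 0.13, adjusted p = 1.39e-05; limma). In both genes all transgenic libraries lay below all Cck-/- libraries. Enzymes that remove inositol trisphosphate fell too, with Itpka, its kinase, at -1.62 and Inpp5a, its phosphatase, at -1.21. So did the G protein regulator gene Rgs8 (-1.37) and Dagla, which makes the endocannabinoid 2-arachidonoylglycerol (-0.65). The member that rose was Itpkb, another inositol trisphosphate kinase (0.42, adjusted p = 0.177 without transgenic replicate 1; limma).

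Calcium handling outside that cascade moved mainly down, with 14 of 45 tested genes lower and 2 higher. Over all genes tested, 6.13% were lower and 4.54% higher. Without 1 library the lower count lay between 9 and 18; it was 9 without transgenic replicate 1 or 2. Atp2a3, a calcium pump of the endoplasmic reticulum on chromosome 11 (72961169 to 72993043, mm10), had 12.0, 10.6 and 13.6 FPKM in transgenic libraries, against 57.9, 60.6 and 62.0 FPKM in Cck-/- libraries (log2 fold change -2.24, SE 0.16, adjusted p = 1.32e-06; limma). The more abundant pump gene of the same store, Atp2a2, had 174, 170 and 195 FPKM in transgenic libraries, against 281, 291 and 290 FPKM in Cck-/- libraries (-0.68, SE 0.08, adjusted p = 5.76e-05; limma). Neither gene's groups overlapped, and the fall was deeper on the log2 scale for the less abundant pump. Casq2, a calcium store buffer (-1.29), and Camk2a, a calmodulin kinase (-1.15), fell too. Ryr3, a calcium release channel, rose by 0.68.

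Channel subunits changed one by one and in both directions, beside 6.13% lower and 4.54% higher over all genes tested. Of 34 voltage-gated and calcium-activated potassium channel genes, 11 fell and 1 rose. They included the auxiliary subunit genes Kcnab1 (-1.08), Kcnip1 (-0.97) and Dpp10 (-0.96), the silent subunit gene Kcng4 (-1.09) and the pore subunit gene Kcnma1 (-0.69). Without transgenic replicate 2, 7 were called lower. Of 20 voltage-gated calcium channel genes, 4 fell and 2 rose. Cacna1g, a T-type channel, had 20.02, 15.4 and 28.9 FPKM in transgenic libraries, against 39.0, 38.3 and 39.96 FPKM in Cck-/- libraries (-0.88, SE 0.14, adjusted p = 0.000878; limma). Cacna1e, the R-type channel, went the other way, with 21.5, 24.2 and 18.7 FPKM in transgenic libraries, against 9.40, 10.9 and 13.5 FPKM in Cck-/- libraries (0.88, SE 0.17, adjusted p = 0.00286; limma). The genotypes did not overlap for either gene. Cacna1a, the P/Q-type channel gene in which repeat expansion causes another ataxia, stood at 54.1, 52.4 and 55.1 FPKM in transgenic and 43.9, 58.7 and 61.0 FPKM in Cck-/- libraries (-0.0033, adjusted p = 0.991; limma). Of 56 tested genes of other inherited ataxias, 11 fell, among them Car8, Itpr1 and Cacna1g, and 1 rose, the transcription factor gene Tbp (0.18).

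Among 17 ionotropic glutamate receptor genes 4 fell and 0 rose, against 6.13% lower and 4.54% higher over all genes tested. Those that fell included the AMPA receptor genes Gria1 (-0.89) and Gria4 (-0.37) and the kainate receptor gene Grik1 (-0.86). Gria1, which Bergmann glia also express, had 53.7, 49.4 and 104 FPKM in transgenic libraries and 163, 113 and 98.3 FPKM in Cck-/- libraries, so that its groups overlapped; it was not called without transgenic replicate 2 (adjusted p = 0.108; limma). Without transgenic replicate 1 or 2 or Cck-/- replicate 1, 2 of the 4 were called lower, and Grik1 was called in every fit. Among 20 GABA and glycine receptor genes 4 fell and 0 rose, and without transgenic replicate 1 or 2 only Gabbr1 was called. Gabbr1, a subunit of the metabotropic GABA-B receptor, had 94.0, 95.9 and 104 FPKM in transgenic libraries, against 147, 160 and 163 FPKM in Cck-/- libraries (-0.67, SE 0.06, adjusted p = 9.25e-06; limma). Its partner Gabbr2 had 35.3, 31.6 and 44.8 FPKM in transgenic libraries, against 48.3, 50.01 and 48.5 FPKM in Cck-/- libraries (-0.40, adjusted p = 0.0117; limma). No transgenic library reached a Cck-/- library for either subunit.

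Of 22 natriuretic peptide and cyclic GMP genes, 7 fell and 3 rose, against 6.13% lower and 4.54% higher over all genes tested. The ligand gene Nppb, which encodes B-type natriuretic peptide, had 1.25, 1.20 and 1.75 FPKM in transgenic libraries, against 0.0896, 0.0480 and 0 FPKM in Cck-/- libraries. It reached 1 FPKM in these 3 transgenic libraries and in 0 of the other 15, so it entered the test only through the group where it was high, and its separation, 1 of the 3 increases counted, is a description with no test. The receptor gene Npr1 had 3.36, 2.98 and 2.85 FPKM in transgenic libraries, against 4.49, 4.90 and 5.60 FPKM in Cck-/- libraries (-0.56, adjusted p = 0.000608; limma), while Npr2, another natriuretic peptide receptor gene, rose by 0.28. Corin, a protease that activates natriuretic peptides, fell by 0.92. Downstream, the cyclic GMP-dependent kinase gene Prkg1 (-1.10), its Purkinje cell substrate gene Ppp1r17 (-1.47) and the phosphodiesterase gene Pde5a (-1.09) fell. The higher count was 1 without transgenic replicate 1.

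Of 19 tested Purkinje cell transcription factor genes, 8 fell and 0 rose, against 6.13% lower and 4.54% higher over all genes tested. Skor2, a corepressor needed for Purkinje cell differentiation, had 0.999, 0.693 and 1.54 FPKM in transgenic libraries, against 3.75, 3.86 and 3.69 FPKM in Cck-/- libraries (log2 fold change -1.22, SE 0.12, adjusted p = 1.86e-05; limma). Ebf2 and Bcl11a fell by 0.86 and 0.85, and the LIM homeobox genes Lhx1 and Lhx5 by 0.63 and 0.60 on the log2 scale. Rora, a partner of ataxin-1, had 35.4, 28.9 and 42.4 FPKM in transgenic libraries, against 51.7, 46.6 and 47.0 FPKM in Cck-/- libraries (-0.45, adjusted p = 0.0111; limma); without transgenic replicate 2 its adjusted p was 0.0570. Among 41 ataxin-1 partner and Capicua target genes, Rora and the ETS factor gene Etv4 (-0.59) fell and the cyclin gene Ccnd1 (0.47) rose, against 6.13% lower and 4.54% higher over all genes tested. Without transgenic replicate 2 no decrease in that list was called. Capicua itself, Cic, stood at 29.4, 30.6 and 27.2 FPKM in transgenic and 26.5, 30.0 and 31.7 FPKM in Cck-/- libraries (adjusted p = 0.935; limma).

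Single genes of the lists for other neurons changed. Of 28 granule neuron genes, 5 rose and 1 fell with a median log2 fold change of 0.11, against 4.54% higher and 6.13% lower over all genes tested. Their mean log2(FPKM + 1) was 6.11, 6.12 and 6.14 in transgenic libraries and 5.77, 6.12 and 6.18 in Cck-/- libraries. Cck-/- replicate 1 alone was low, with 25 of the 28 genes below the Cck-/- mean, and the positive median rests on that library. Kcnk9, a leak potassium channel, rose by 0.58 and the synaptic vesicle gene Synpr by 0.49, while Cbln1 and Cbln3, the cerebellins that granule neurons secrete, had changes of 0.11 and -0.14 that were not called. The number of granule neuron genes called higher was 2 without transgenic replicate 2, 3 without transgenic replicate 1 or 3 or Cck-/- replicate 1, and 7 without Cck-/- replicate 3. Of 23 interneuron genes, 4 fell and 0 rose, and Gad1, Gad2 and Slc32a1, the genes of GABA synthesis and loading, are also made by Purkinje cells. The fourth was Npy, neuropeptide Y, at 4.59, 12.2 and 13.4 FPKM in transgenic libraries, against 29.6, 23.8 and 23.5 FPKM in Cck-/- libraries (-1.38, SE 0.30, adjusted p = 0.00893; limma). Without transgenic replicate 1 or 2, Cck-/- replicate 1 or Cck-/- replicate 2, 1 interneuron gene was called lower. Of 7 tested genes of brainstem and cerebellar nuclei, 1 fell and 0 rose. It was Th, tyrosine hydroxylase, with 2.13, 1.59 and 0.588 FPKM in transgenic libraries, against 4.06, 6.59 and 6.12 FPKM in Cck-/- libraries (-1.47, SE 0.29, adjusted p = 0.00403; limma). Of 8 unipolar brush cell genes 3 fell, among them Plcb4, which Purkinje cells also express, while the markers Eomes and Lmx1a had changes of -0.10 each that were not called.

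Astrocyte genes went both ways. Of 30 Bergmann glia and astrocyte genes, 11 fell and 3 rose, against 6.13% lower and 4.54% higher over all genes tested. The median log2 fold change of the list was 0.04. Aqp4, the water channel of astrocyte endfeet, had 235, 257 and 173 FPKM in transgenic libraries, against 125, 97.3 and 98.0 FPKM in Cck-/- libraries (1.04, SE 0.13, adjusted p = 0.000120; limma). Gja1, the gap junction protein connexin 43, had 179, 195 and 141 FPKM in transgenic libraries, against 122, 93.8 and 93.0 FPKM in Cck-/- libraries (0.73, SE 0.12, adjusted p = 0.000958; limma). Slc1a3, the glutamate transporter of Bergmann glia, had 196, 180 and 275 FPKM in transgenic libraries, against 375, 347 and 337 FPKM in Cck-/- libraries (-0.72, SE 0.12, adjusted p = 0.00145; limma). The genotypes did not overlap for any of the 3 genes. Also lower were the potassium channel gene Kcnj10 (-0.51), the growth factor gene Gdf10 (-0.72), the fatty acid binding protein gene Fabp7 (-0.66) and Itih3, an inhibitor subunit of extracellular matrix (-0.96). The lower count was 3 without transgenic replicate 2, 4 without transgenic replicate 1 and 6 without Cck-/- replicate 2, and Slc1a3 and Kcnj10 were called in every fit. Of the 3 that rose, Vim, an intermediate filament gene, was the one not called in every fit; the higher count was 8 without Cck-/- replicate 1, the library with the highest glial levels of its group.

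Genes of astrocyte reactivity rose in part, 8 higher and 2 lower of 29, against 4.54% higher and 6.13% lower over all genes tested. Of the 8, 1 (Socs3) reached the FPKM minimum in 3 libraries only with the transgenic week 28 libraries counted, which favours an increase. The other 7 did not depend on them. Gfap, the filament protein of reactive astrocytes, had 277, 324 and 180 FPKM in transgenic libraries, against 134, 83.1 and 69.5 FPKM in Cck-/- libraries (log2 fold change 1.45, SE 0.30, adjusted p = 0.00536; limma). Cd44, a hyaluronan receptor, rose by 0.90 and C4b, complement component 4, by 1.14. The members that fell were the matrix gene Tnc and the histocompatibility gene H2-D1. Serpina3n, another reactive astrocyte gene, had 6.22, 7.88 and 4.67 FPKM in transgenic and 17.5, 2.96 and 3.07 FPKM in Cck-/- libraries, where replicate 1 alone was high (adjusted p = 0.946; limma). The number of reactive genes called higher was 4 without transgenic replicate 1, transgenic replicate 2 or Cck-/- replicate 2, 5 without Cck-/- replicate 3 and 14 without Cck-/- replicate 1.

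**Figure D4:**
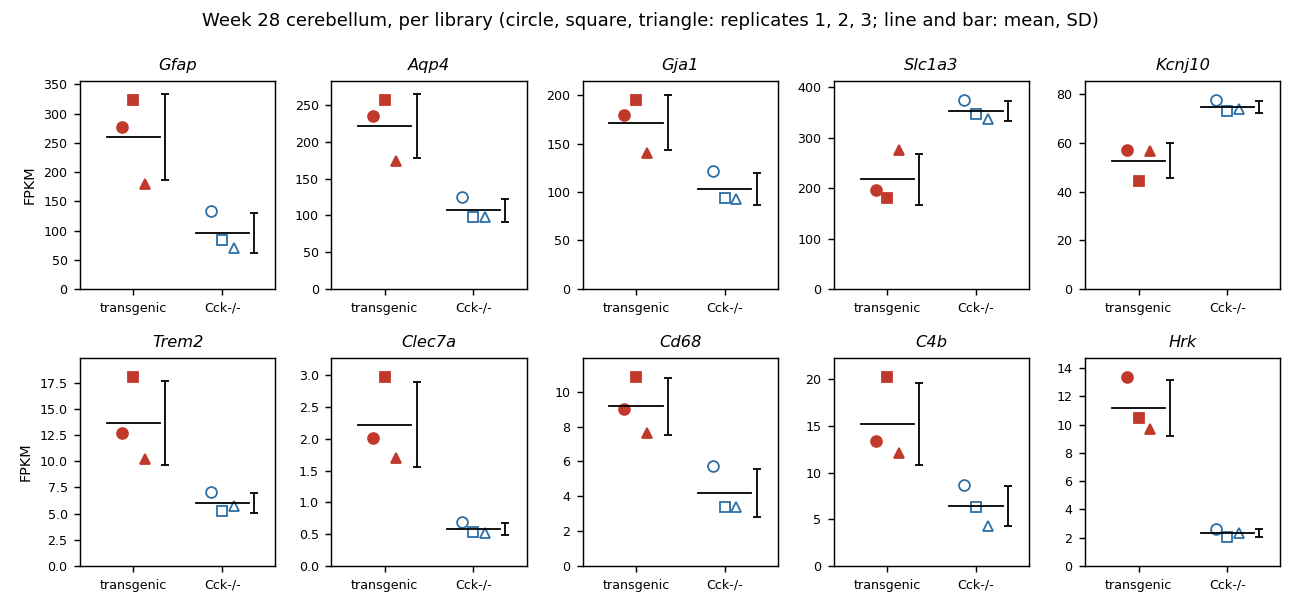
FPKM of 9 glial genes and Hrk in each week 28 library, transgenic on the left and Cck-/- on the right of each panel, with the mean as a line and the SD as a bar (n = 3 each). Gfap, Aqp4, Gja1 and the microglial genes are higher in all 3 transgenic libraries, Slc1a3 and Kcnj10 are lower, and Cck-/- replicate 1 (circle) is the highest Cck-/- library for Gfap, Aqp4 and Cd68.

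Microglia genes moved upward without exception among those called. Of 29 genes of activated microglia, 14 rose and 0 fell (median log2 fold change 0.52), and of 27 genes of homeostatic microglia, 10 rose and 0 fell (median 0.39), against 4.54% higher among all genes tested. Of these, 4 activated and 1 homeostatic gene reached the FPKM minimum in 3 libraries only with the transgenic week 28 libraries counted, which favours an increase. The other 10 and 9 did not depend on them. Trem2, a lipid-sensing receptor, had 12.7, 18.1 and 10.2 FPKM in transgenic libraries, against 7.04, 5.24 and 5.76 FPKM in Cck-/- libraries (1.04, SE 0.21, adjusted p = 0.00503; limma). Clec7a, a pattern receptor of activated microglia, had 2.01, 2.98 and 1.70 FPKM in transgenic libraries, against 0.687, 0.537 and 0.518 FPKM in Cck-/- libraries; as 1 of those 4 it is given with no test. Cd68, a lysosomal protein of phagocytes, had 8.997, 10.9 and 7.63 FPKM in transgenic libraries, against 5.77, 3.36 and 3.40 FPKM in Cck-/- libraries (0.99, SE 0.20, adjusted p = 0.00433; limma). All transgenic libraries lay above all Cck-/- libraries for these 3 genes, with transgenic replicate 2 the highest. Apoe, a lipid carrier, rose by 0.53 and missed the threshold without transgenic replicate 2 (adjusted p = 0.0516; limma). Itgax, a marker of activated microglia that was too low to test, stood at 0.719, 1.18 and 0.646 FPKM in transgenic and 0.149, 0.0709 and 0.116 FPKM in Cck-/- libraries. Of the markers of resting microglia, P2ry12 and Tmem119 had changes of 0.31 and 0.23 that were not called (adjusted p = 0.162 and 0.346; limma).

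The microglial counts depended on single libraries. Activated genes called higher numbered 5 without transgenic replicate 2 and 8 without Cck-/- replicate 3. Homeostatic genes called higher numbered 2 without transgenic replicate 2, 3 without Cck-/- replicate 3 and 4 without transgenic replicate 1 or Cck-/- replicate 2, and 18 and 20 without transgenic replicate 3 and Cck-/- replicate 1. All 10 homeostatic genes that rose were highest in transgenic replicate 2 and lowest in replicate 3 among the transgenic libraries. That order was not particular to microglia. Over all 612 genes called higher, replicate 2 was the highest transgenic library in 349 and replicate 3 the lowest in 447. Replicate 2 was also the lowest, and replicate 3 the highest, for most Purkinje cell genes.

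Complement genes rose in 4 of 14 cases, where 4.54% of all genes tested were higher and 6.13% lower. The 4 were C4b, C3, which also reached the FPKM minimum only through transgenic libraries, C1qa (0.84) and the receptor subunit gene Itgb2 (0.46). C4b had 13.4, 20.3 and 12.1 FPKM in transgenic libraries, against 8.64, 6.31 and 4.28 FPKM in Cck-/- libraries, and its close copy C4a was too low to test, so the split of reads between them is uncertain. The complement count was 2 without transgenic replicate 2, Cck-/- replicate 2 or Cck-/- replicate 3, and 10 without Cck-/- replicate 1. Of 41 lysosome and phagocytosis genes, 9 rose and 1 fell; 2 were called higher without transgenic replicate 2 or Cck-/- replicate 2, 3 without Cck-/- replicate 3 and 4 without transgenic replicate 1. Of 28 interferon response genes 0 were called in either direction (limma), with 2 at an unadjusted p under 0.05 and 3 called without Cck-/- replicate 1, and of 20 class I antigen presentation genes 1 was, H2-D1, at 62.8, 77.1 and 65.7 FPKM in transgenic and 82.3, 94.3 and 89.3 FPKM in Cck-/- libraries (-0.37, adjusted p = 0.0322; limma). Endothelium and pericyte genes gave 0 calls among 33, as did choroid plexus genes among 17, meninges genes among 18 and blood genes among 9 (limma); at an unadjusted p under 0.05 the numbers were 2, 0, 0 and 0. Without Cck-/- replicate 1, 6 meninges genes were called higher. The median log2 fold changes of the last 3 lists were -0.71, 0.29 and -0.53, and their part in the glial results was not tested.

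Of 35 myelin and oligodendrocyte genes, 8 rose and 0 fell, against 4.54% higher and 6.13% lower over all genes tested. The median log2 fold change of the list was 0.26. Mbp, myelin basic protein, had 1873, 1983 and 1709 FPKM in transgenic libraries, against 1496, 1414 and 1191 FPKM in Cck-/- libraries (0.44, SE 0.10, adjusted p = 0.0106; limma). The transcription factor genes Myrf and Sox10 rose by 0.41 and 0.40. No myelin gene was called without transgenic replicate 2 or Cck-/- replicate 3, 2 were without transgenic replicate 1, and 19 were without Cck-/- replicate 1. Of 22 oligodendrocyte precursor genes, 4 rose, among them the proteoglycan genes Bcan (0.29) and Vcan (0.51); the precursor marker Cspg4 had 0.17 and was not called. The count was 1 without transgenic replicate 2 or Cck-/- replicate 3 and 2 without transgenic replicate 1 or Cck-/- replicate 2.

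Several of the largest increases lay outside the cell type lists. Mslnl, a relative of mesothelin on chromosome 17 (25736040 to 25748330, mm10), had 3.47, 6.67 and 3.92 FPKM in transgenic libraries, against 0.211, 0.478 and 0.690 FPKM in Cck-/- libraries (log2 fold change 1.93, SE 0.20, adjusted p = 1.92e-05; limma). Galr1, a receptor for the neuropeptide galanin, had 4.69, 2.56 and 2.65 FPKM in transgenic libraries, against 0.381, 0.157 and 0.372 FPKM in Cck-/- libraries (1.69, SE 0.22, adjusted p = 0.000158; limma). Every transgenic library exceeded every Cck-/- library severalfold for both genes. Basement membrane genes were among the others: Col4a1 had 7.05, 5.61 and 9.29 FPKM in transgenic libraries, against 3.08, 3.01 and 2.74 FPKM in Cck-/- libraries (1.05, SE 0.14, adjusted p = 0.000203; limma). Col4a2, which starts beside Col4a1 on chromosome 8 and encodes its partner chain, rose by 0.77. In all, 4 of 42 collagen and laminin genes rose and 0 fell, against 4.54% higher and 6.13% lower over all genes tested. The higher count of this list was 7 without Cck-/- replicate 1. Transgenic replicate 3 was the highest library for Col4a1, unlike for the microglial genes. Pappa, a protease of the insulin-like growth factor system, rose by 1.13 and Cda, cytidine deaminase, by 1.02; neither was called in every fit (adjusted p = 0.0798 for Pappa without transgenic replicate 2 and 0.0910 for Cda without transgenic replicate 1; limma).

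Apoptosis genes of the BCL2 family changed in both directions, 5 higher and 5 lower of 36. Among all genes tested, 4.54% were higher and 6.13% lower. Hrk, a BH3-only activator of apoptosis on chromosome 5, had 13.4, 10.5 and 9.66 FPKM in transgenic libraries, against 2.62, 2.06 and 2.30 FPKM in Cck-/- libraries (log2 fold change 1.86, SE 0.18, adjusted p = 1.59e-05; limma). The genotypes lay far apart. Bbc3, another BH3-only gene, rose by 0.53 and Jun, a transcription factor of the stress kinase pathway, by 0.64. Bok, a pro-apoptotic family member, fell by 0.87 and the caspase gene Casp9 by 0.24. The lower count was 2 without transgenic replicate 2 or Cck-/- replicate 2 and 3 without transgenic replicate 1, and the higher count was 8 without Cck-/- replicate 1. Of 39 genes of the unfolded protein and integrated stress response, 3 rose and 0 fell, against 4.54% higher and 6.13% lower over all genes tested. The 3 were Phgdh (0.47), Atf3 (0.46) and the kinase gene Eif2ak3 (0.44), and Eif2ak3 alone was called in all 6 fits without a library.

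Genes of energy supply shifted slightly downward. Of 76 oxidative phosphorylation genes, 9 fell and 0 rose with a median of -0.14, against 6.13% lower and 4.54% higher over all genes tested. In this list 1 gene was called without transgenic replicate 1, transgenic replicate 2 or Cck-/- replicate 2, against 28 without transgenic replicate 3. Atp5e, a subunit of the ATP synthase, had 262, 258 and 302 FPKM in transgenic libraries, against 355, 369 and 329 FPKM in Cck-/- libraries (-0.36, adjusted p = 0.0238; limma). Of 60 mTORC1 pathway genes 1 rose and 2 fell, a smaller share than the 10.7% called over all genes. Pik3r1, the regulatory subunit of phosphoinositide 3-kinase, rose by 0.33 with 34.4, 31.0 and 33.0 FPKM in transgenic libraries, against 25.8, 26.1 and 25.6 FPKM in Cck-/- libraries (adjusted p = 0.00100; limma). The kinase gene Akt2 and the GTPase gene Rheb fell by 0.37 and 0.19, and neither was called without transgenic replicate 2. The 38 heat-shock chaperone genes gave 1 higher and 4 lower calls, and 2 lower without transgenic replicate 2.

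The fit also gave the transgene effect at the earlier ages. Of the 827 genes called lower at week 28, 89.6% had a negative log2 fold change at week 12 and 79.7% at week 5, against 48.8% and 49.9% of all genes tested. Of the 612 called higher, 88.9% were positive at week 12 and 67.6% at week 5, against 51.2% and 50.1%. The test of the difference between the effects at week 28 and week 12 called 0 genes (limma), with 1365 at an unadjusted p under 0.05. That count depended on the fit: with library weights it was 2344, and without transgenic replicate 3 it was 149, of which 131 were more negative at week 28. Between week 28 and week 5 the effect differed in 492 genes, 3.65% of those tested, 233 more positive (1.73%) and 259 more negative (1.92%). That number was 120 without transgenic replicate 1, 139 without transgenic replicate 2, 1058 without transgenic replicate 3, 132 without Cck-/- replicate 2 and 258 without Cck-/- replicate 3. Cck stood at 98.1 ± 15.6 FPKM in the transgenic and 20.8 ± 4.51 FPKM in the Cck-/- libraries of week 5 (mean ± SD, n = 3 each), so at that age the transgene and the Cck level cannot be told apart.

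**Figure D5:**
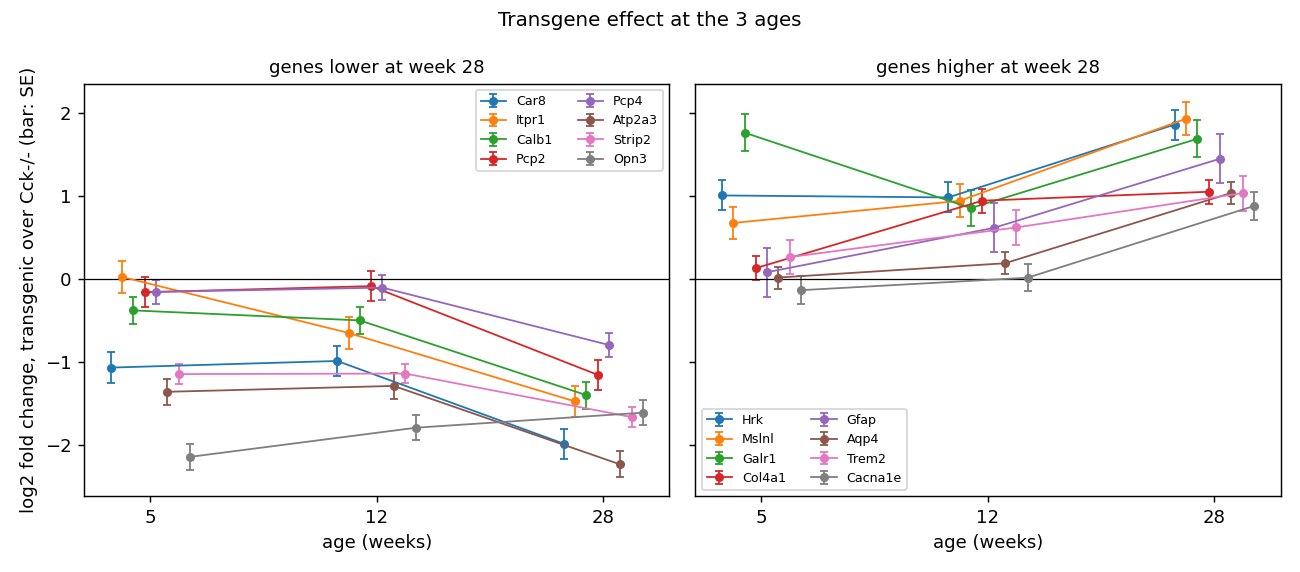
Log2 fold change of transgenic over Cck-/- libraries at weeks 5, 12 and 28 for 16 genes, with the SE from limma as a bar. Pcp2 and Pcp4 lie near 0 at weeks 5 and 12 and below 0 at week 28, Strip2 and Opn3 are below -1 at each age, and Aqp4 and Cacna1e depart from 0 at week 28.

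The decreases had unlike values over the 3 ages. The main fit called 0 genes for a difference between weeks 28 and 12, so the tests given here are against week 5. They come from the main fit alone. For single genes and lists they were not followed in the fits without a library, where the total fell as low as 120. Of the 36 identity genes, 17 had a more negative effect at week 28 than at week 5 and 0 a more positive one, against 1.92% and 1.73% of all genes. Pcp2 had log2 fold changes of -0.16 at week 5, -0.08 at week 12 and -1.15 at week 28 (week 28 minus week 5 -0.996, SE 0.26, adjusted p = 0.0454; limma). Itpr1 had 0.03, -0.65 and -1.48 at the 3 ages (difference -1.50, SE 0.27, adjusted p = 0.0106; limma), and Rgs8 had -0.14, -0.64 and -1.37 (difference -1.23, adjusted p = 0.0165; limma). Calb1 had -0.38, -0.50 and -1.40 (difference -1.02, adjusted p = 0.0296; limma). Strip2, also of the identity list, had -1.15, -1.14 and -1.66 (difference -0.52, adjusted p = 0.102; limma). Outside that list, Opn3 had -2.14, -1.79 and -1.61 (difference 0.53, adjusted p = 0.189; limma) and Garnl3 had -1.70, -1.38 and -1.90 (difference -0.20, adjusted p = 0.768; limma). In the mGluR1 cascade 10 of 31 genes, and among Purkinje cell transcription factors 6 of 19, were more negative at week 28 than at week 5.

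The increases also differed in when they appeared, again by tests from the main fit alone. Aqp4 had log2 fold changes of 0.02, 0.19 and 1.04 at weeks 5, 12 and 28 (week 28 minus week 5 1.02, SE 0.19, adjusted p = 0.0127; limma), and Cacna1e had -0.13, 0.02 and 0.88 (difference 1.02, adjusted p = 0.0317; limma). Col4a1 had 0.13, 0.95 and 1.05 (difference 0.92, adjusted p = 0.0261; limma). Galr1 was high at the first age, with 1.77, 0.86 and 1.69 (difference -0.07, adjusted p = 0.929; limma). For Gfap, with 0.08, 0.62 and 1.45, the difference did not pass (1.37, adjusted p = 0.0853; limma). Among myelin genes 16 of 35 were more positive at week 28 than at week 5, against 1.73% of all genes tested. Their week 5 values lay below 0: Mog had -0.62 at week 5 and 0.29 at week 28, and Fa2h had -0.50 and 0.29.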

How the data were processed

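RNA from mouse cerebellum was made into Illumina TruSeq libraries, per the labels' protocols. Reads were aligned to mm10 with TopHat2 2.0.11 and quantified with Cufflinks 2.2.1, per the submitters' processing notes. The authors deposited FPKM per gene symbol, normalized over the 18 libraries with Cuffnorm; no source used here gives the annotation or the normalization method. No counts or depths were used, so no counting intervals are given.

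Of 22783 genes, 13487 reached an FPKM of 1 in 3 or more of the 18 libraries and were tested on log2(FPKM + 1), which understates changes of low genes. Of the genes called higher, 23 passed this minimum only with the transgenic week 28 libraries counted; of those called lower, 0 depended on the Cck-/- week 28 libraries. Limma 3.58.1 (R 4.3.3, data.table, version 1.17.8) fitted a mean for each of the 6 groups with a mean-variance trend and 12 residual degrees of freedom. P-values are two-sided with Benjamini-Hochberg adjustment over all tested genes, and 0.05 was the threshold. There were 3 comparisons: the transgene effect at week 28 and its difference from weeks 12 and 5. The script was tested on simulated data.

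Members and the 52 gene lists (1271 distinct genes tested) were chosen with earlier results of these data known. Lists are described by counts and medians, with no set test. The genes named are the 20 largest changes in each direction whose genotypes do not overlap, up to 8 called members of a list with the largest change, the largest interactions and a few fixed genes; some are left out. Cacna1a, Cbln1, Cbln3, Cic, Dagla, Eomes, Gabra6, Inpp5a, Itgax, Itgb8, Itpkb, Lmx1a, Mog, P2ry12, Pcp4, Ryr1, Serpina3n, Sphkap, Tbp and Tmem119 were added after their values were seen. Alternatives are given in the closing section. Replicate numbers did not pair the samples. Motifs were searched in RefSeq promoter windows of GRCm38. Python steps used pandas 2.3.3, numpy 2.4.6 and matplotlib 3.10.9 under Python 3.11.15. Some genes are not reported here.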

Additional observations from a re-analysis of the deposited data

Results flagged for a closer look

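For 8 of the genes with the largest differences between ages, the transgene effect at week 28 differed from that at week 5 by limma's test of the difference. The log2 effect was lower at week 28 by a difference of -2.94 for Tuba1c (adjusted p = 0.000317), -1.83 for Cck (adjusted p = 0.0105), -1.50 for Itpr1 (adjusted p = 0.0106) and -1.40 for Hist2h2bb (adjusted p = 0.000317). It was higher by 1.26 for Mslnl (adjusted p = 0.0276), 1.29 for Nxpe4 (adjusted p = 0.00547), 1.31 for Olfml3 (adjusted p = 0.0244) and 1.53 for Them4 (adjusted p = 0.0246). At week 28 itself Tuba1c, Cck, Nxpe4, Olfml3 and Them4 were not called, with log2 fold changes of -0.20, 0.36, 0.27, 0.43 and 0.31. Tuba1c and Hist2h2bb have near-identical relatives, so the split of their reads is uncertain. Choroid plexus genes were lower in transgenic replicate 3, and the small RNA gene AF357426 was at 49462 FPKM in transgenic replicate 2 and at 0 in the other week 28 libraries.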

How the results depend on the processing

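The week 28 count of 1439 genes stayed within 1.5 times with pseudocounts of 0.1 and 0.5, without the filter, with a stricter filter (mean FPKM 5), median-ratio and quantile scaling, robust fitting and covariates for Xist and choroid plexus levels; quantile scaling called 749 higher and 821 lower. With library weights the counts were 5835 at week 28, 2344 for its difference from week 12 and 4325 for its difference from week 5. Fits of only the ages compared gave 337 and 189 for week 28 and the difference from week 5. Without 1 week 28 library the week 28 count ran from 618 to 1983, the difference from week 12 from 0 to 149 and the difference from week 5 from 120 to 1058. The causes were not tested. Replicate numbers did not pair the samples (correlations of same-numbered deviations 0.20, -0.14 and -0.018), and a fit with the replicate number as a block called 1411, 0 and 520 genes. Among the genes that the naming rule gave, 0 changed sign past the threshold under the settings in which they were tested. The stricter filter tested 186 of them. Genes added after their values were seen were not part of this check. Lost calls among the genes that the rule gave were most frequent in the fit of week 28 libraries alone (134) and without transgenic replicate 2 (97). Depth is unknown, so no limit from counting can be given.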
